A study of Mus musculus with 12 samples.

Results

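Hepatocyte identity is held by a small set of transcription factors, and 8 of their genes were described here across mouse livers and liver tumors, namely Hnf4a, Foxa1, Foxa2, Foxa3, Cebpa, Prox1, Onecut1 and Onecut2. They were taken by symbol from the 24421 gene symbols counted in each library. All 8 were found in the count files, and all 8 passed the filter on low counts in every comparison. The data are 12 bulk poly(A) RNA-seq libraries, 6 of liver tumors and 6 of non-tumoral livers. The mice were over 18 months old and on a standard diet, and carried either p21Tert, which expresses telomerase reverse transcriptase from the promoter of Cdkn1a (p21), or p21TertCi, which expresses a catalytically inactive form from the same promoter. Every group therefore carries a Tert transgene placed under the p21 promoter, and no wild-type liver was analysed here. The p21Tert livers are labelled p_961, p_663, p_941 and NT_992 and the p21TertCi livers L981_CI and L984_CI, and liver values are given in that order below. Tumors bear the study's names, which start with T for p21Tert (n = 4) and with TCi for p21TertCi (n = 2), and which end in the number of the mouse.

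Tumors were also placed in driver classes from the mutations that the study found by exome sequencing, which are not in the sample labels. The Ctnnb1 class is T-HCC662 followed by T-HCC663, the Egfr/Hras class is T-HCC941 (Egfr) followed by TCi-HCC981 (Hras), and the class called driver-negative below, without these mutations, is T-HCA992 followed by TCi-HCA984. The values of a class are given in the same order. Driver-negative means here only that the study reported no Ctnnb1, Egfr or Hras mutation. The study reported other mutations in both tumors of that class, and a MAPK activation signature in T-HCA992. Both Ctnnb1 tumors are p21Tert, so in that class driver and genotype cannot be told apart, and each class is 2 tumors. The study diagnosed both driver-negative tumors as hepatocellular adenomas (HCA) and both Egfr/Hras tumors as hepatocellular carcinomas (HCC). Between these 2 classes driver and diagnosis cannot be told apart. Between 14571716 and 23932529 reads were counted on genes per liver and between 17471387 and 26170661 per tumor. Levels are in CPM, the count of a gene relative to the library total, scaled with the trimmed mean of M values. Tests are edgeR's quasi-likelihood F test with Benjamini-Hochberg adjustment over all genes tested. As a check of the classes, Glul and Axin2, which β-catenin activates, were at 9494 to 10316 and 72.9 to 81.2 CPM in the Ctnnb1 tumors, against 140 to 439 and 1.46 to 4.15 CPM in the other 4 tumors. Tert was read in every library, at 10.5 to 17.3 CPM in livers and 4.69 to 26.1 CPM in tumors. Cdkn1a was at 1.62 to 51.1 CPM in livers and 32.9 to 81.0 CPM in tumors. Xist stayed at or below 1.46 CPM and Ddx3y was between 36.3 and 88.5 CPM in all 12 libraries, the pattern of males.

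These factors bind one another's promoters and those of genes for plasma proteins, bile acid and lipid handling, gluconeogenesis and the urea cycle. The FOXA proteins are pioneer factors that open chromatin for the others, HNF4A is a nuclear receptor that keeps the adult hepatocyte program on, and C/EBPα drives metabolic genes and restrains division. PROX1 is a homeodomain factor of hepatoblasts and hepatocytes that also specifies lymphatic endothelium, and HNF6 (Onecut1) and OC2 (Onecut2) act in the choice between hepatocyte and bile duct fates. Bile duct cells also express Foxa1, Foxa2 and Onecut1.

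The promoters of Cebpa, Foxa3 and Hnf4a are shown because the first fell in tumors, the second is the 1 member with a point estimate above 0 in tumors, and the third has 2 start sites with an antisense gene over the first. Each run is 300 bases on the strand of the gene, 250 before to 50 after the start site, from RefSeq on GRCm38.p6 (mm10), and capitals mark a TATA box, searched as TATAAA on both strands.

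Cebpa, chr7:35119043-35119342, plus strand: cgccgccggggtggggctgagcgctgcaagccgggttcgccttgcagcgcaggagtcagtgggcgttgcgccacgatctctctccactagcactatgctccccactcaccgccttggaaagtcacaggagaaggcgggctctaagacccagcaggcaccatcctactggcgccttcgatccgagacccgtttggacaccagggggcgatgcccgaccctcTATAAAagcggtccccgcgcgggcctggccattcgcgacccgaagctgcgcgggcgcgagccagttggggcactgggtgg

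Foxa3, chr7:19023490-19023789, minus strand: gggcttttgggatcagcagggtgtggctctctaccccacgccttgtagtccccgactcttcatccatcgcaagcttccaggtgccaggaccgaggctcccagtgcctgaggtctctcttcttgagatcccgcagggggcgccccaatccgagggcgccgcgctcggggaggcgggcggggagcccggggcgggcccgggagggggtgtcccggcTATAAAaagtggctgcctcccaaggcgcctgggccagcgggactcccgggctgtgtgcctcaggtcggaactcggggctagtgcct

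Hnf4a, first start site, chr2:163506607-163506906, plus strand: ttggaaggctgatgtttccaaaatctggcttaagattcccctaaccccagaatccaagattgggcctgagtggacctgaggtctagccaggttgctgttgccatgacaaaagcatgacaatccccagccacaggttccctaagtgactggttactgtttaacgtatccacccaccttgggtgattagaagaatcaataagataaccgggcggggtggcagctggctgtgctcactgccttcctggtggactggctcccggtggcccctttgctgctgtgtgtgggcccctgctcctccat

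Hnf4a, second start site, chr2:163546905-163547204, plus strand: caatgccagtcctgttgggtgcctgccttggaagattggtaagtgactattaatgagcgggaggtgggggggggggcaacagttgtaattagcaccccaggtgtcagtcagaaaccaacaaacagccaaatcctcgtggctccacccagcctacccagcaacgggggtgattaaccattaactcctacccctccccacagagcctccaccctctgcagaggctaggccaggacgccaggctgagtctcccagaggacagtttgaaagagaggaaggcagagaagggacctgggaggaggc

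RefSeq promoters were matched for 7 of the 8 genes, with 11 start sites. TATAAA lay 30 bases before the start of Cebpa and 36 before that of Foxa3, and also in a promoter of Prox1 and of Foxa2, so in 4 of 11 member promoters against 13.6% of 32851 promoters in the table. TGTTTAC, a core of FOXA sites, was in 1 promoter of Foxa1 (3.65% of all promoters), and its variant TGTTTGC in 1 of Prox1 (5.07%). The letters CAAAGTCCA (HNF4), TTGCNNAA (C/EBP), ATCAATC (ONECUT) and CTTTGATC (TCF/LEF), held by 0.475%, 10.8%, 1.69% and 0.938% of all promoters, were in none of the 11. Motifs did not overlap one another in these windows, were chosen from general knowledge, and are letters in a window rather than sites.

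Per kilobase of exon, the order of the 8 genes in livers was Cebpa (280 ± 51.5 CPM per kb, SD, n = 6), Hnf4a (144 ± 27.5), Foxa3 (33.7 ± 12.2), Foxa2 (23.2 ± 6.70), Foxa1 (7.25 ± 1.77), Onecut2 (6.96 ± 1.46), Prox1 (4.16 ± 1.63) and Onecut1 (1.96 ± 1.58). Ranges were apart between Cebpa and Hnf4a, between Hnf4a and Foxa3, and between Foxa2 and Foxa1, and overlapped for the other neighbors. In tumors the order of the means was the same. Onecut2 was above Prox1 in 6 of 6 livers, but in only 2 of 6 tumors. Cebpa (162 ± 28.3 CPM per kb) came down to a range that overlapped with Hnf4a (129 ± 20.4). It was above Hnf4a in all 6 tumors, or in 4 of 6 with the longest transcript as length. Foxa3 (53.6 ± 9.95) stood apart from Foxa2 (18.5 ± 6.26) in all 6 tumors, whereas in livers it was above Foxa2 in 5 of 6, or in 3 of 6 with the longest transcript as length. Lengths are unions of GENCODE exons.

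**Figure D1:**
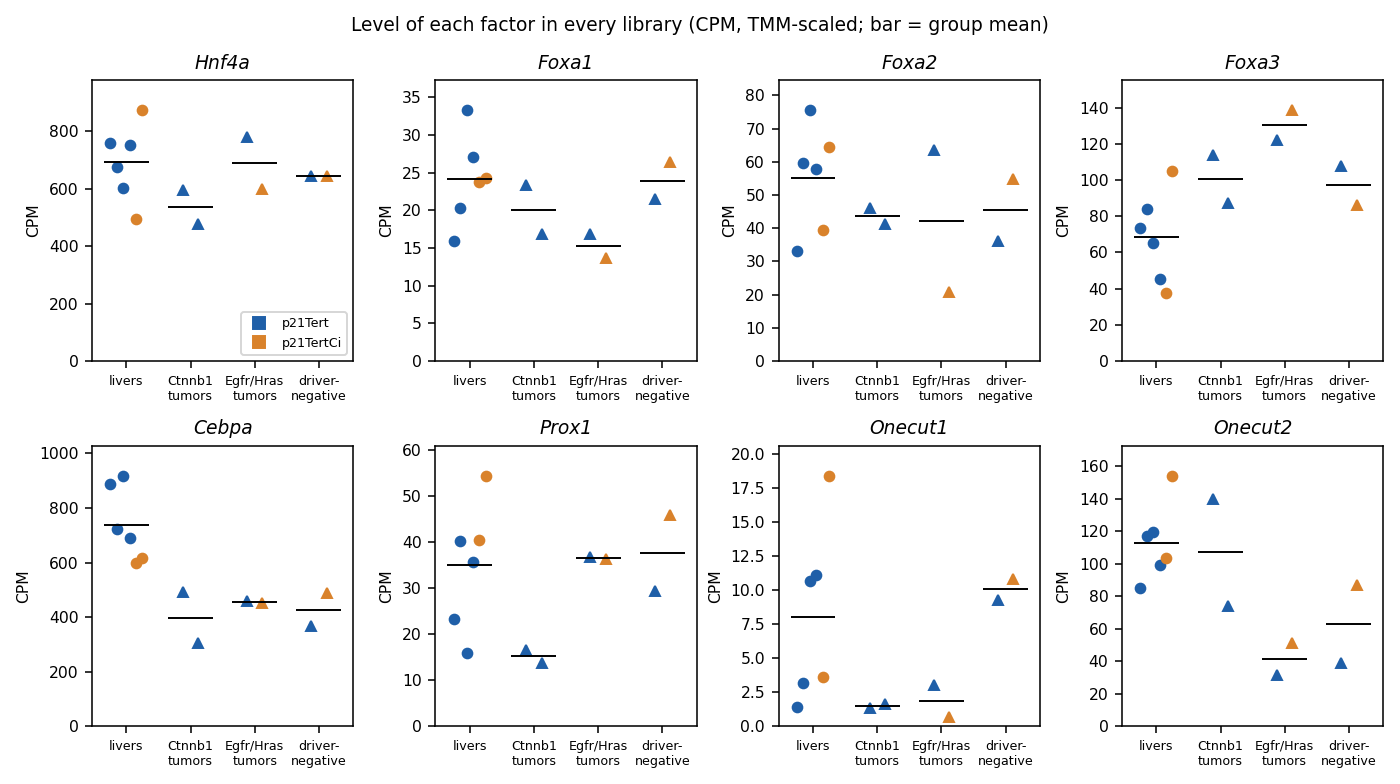
Level of each factor in CPM (vertical axis, from 0) in the 6 livers (circles) and the 2 tumors of each driver class (triangles), with p21Tert in blue, p21TertCi in orange and a bar at each mean. Cebpa is the panel in which every tumor (305 to 492 CPM) lies below every liver (599 to 918 CPM), and Onecut2 is lowest in both Egfr/Hras tumors and in driver-negative T-HCA992.

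Over all 8 genes, 1 was called in tumors against livers at an adjusted p under 0.05, and it was lower. That share is near the 10.7% called among the 13822 genes tested. The point estimates of 7 of the 8 were below 0, with a median log2 fold change of -0.32 against 0.01 over all genes tested. Both values describe the list and were not tested. In bulk tissue, fewer cells of a type and less RNA per cell cannot be told apart.

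Cebpa encodes C/EBPα, on chromosome 7 (mm10, 35119293 to 35121928, plus strand), in a single exon, of which the antisense gene Gm45091, not among the counted symbols, covers 51 bases. Its level was 918, 890, 722 and 688 CPM in p21Tert livers and 599 and 616 CPM in p21TertCi livers. Among tumors the values were 492 and 305 CPM in Ctnnb1, 459 and 451 CPM in Egfr/Hras and 367 and 488 CPM in driver-negative tumors. The 2 groups did not overlap, which was also true of 5.11% of all genes tested. Cebpa fell in tumors by 0.80 on the log2 scale (SE 0.20, a level 0.575 of that in livers, 95% interval 0.427 to 0.776, adjusted p = 0.0241). In each of the 5 mice with a matching number the tumor was lower than the liver, with log2 ratios of -1.54 to -0.34, and T-HCC662 was lower than p_961. With mouse as a block over those 5 pairs the adjusted p was 0.0748, and with p_961 and T-HCC662 as the sixth pair it was 0.0383. The call was also lost without p_663 (adjusted p = 0.0568), p_961 (0.0591) or T-HCA992 (0.0542).

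Within p21Tert, Cebpa fell by 1.01 on the log2 scale (SE 0.23, adjusted p = 0.0292), beside 6.49% of 15182 genes called, and its 4 tumors lay below its 4 livers, as 15.4% of all genes lay apart in 1 direction or the other. That call did not hold over the 5 pairs (adjusted p = 0.0955) or in 6 of the 12 fits without 1 library (adjusted p-values of 0.052 to 0.0974 without p_663, p_941, p_961, T-HCC663, T-HCC941 or T-HCA992). In p21TertCi, with 2 tumors and 2 livers, the log2 fold change was -0.39 (SE 0.33, adjusted p = 0.705). The difference between the genotypes was 0.62 (SE 0.40, unadjusted p = 0.152, adjusted p = 1), so the 2 responses were not shown to differ. By driver class the log2 fold changes against livers were -0.91 (SE 0.29) for Ctnnb1, -0.73 (SE 0.29) for Egfr/Hras and -0.79 (SE 0.29) for driver-negative tumors, with adjusted p-values of 0.08, 0.101 and 0.119. Ctnnb1 differed from other tumors by -0.16 (95% interval -0.80 to 0.49).

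Hnf4a, on chromosome 2 (163506808 to 163572910, plus strand), did not pass the test in any comparison. Its level was 602, 760, 675 and 752 CPM in p21Tert livers and 495 and 873 CPM in p21TertCi livers. The tumors stood at 595 and 476 CPM in Ctnnb1, 779 and 600 CPM in Egfr/Hras and 646 and 643 CPM in driver-negative tumors. Tumors lay within or just below the liver range, with a log2 fold change of -0.16 (SE 0.20, 95% interval -0.59 to 0.27, adjusted p = 0.657). The lower bound corresponds to a level 0.663 of that in livers. Both Ctnnb1 tumors were below the other 4 tumors in Hnf4a, which was also so, in either direction, for 37.5% of genes, and the difference was -0.33 (SE 0.29, adjusted p = 0.472).

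The antisense gene Hnf4aos, on chromosome 2 (163493807 to 163541720, minus strand), covers the first Hnf4a start site and ends before the second, and shares 0 exon bases with Hnf4a. Hnf4aos was at 21.8, 18.8, 13.8 and 7.14 CPM in p21Tert livers and 7.22 and 3.54 CPM in p21TertCi livers. Tumors had 0.18 and 1.49 CPM in Ctnnb1, 0.864 and 0.873 CPM in Egfr/Hras and 0.287 and 1.14 CPM in driver-negative tumors. The groups did not overlap, which was also true of 5.11% of all genes tested. Hnf4aos fell by 3.91 on the log2 scale (SE 0.58, adjusted p = 0.0018), a call kept in 18 of 18 settings of tumors against livers. It was called within p21Tert (-4.47, SE 0.66, adjusted p = 0.0052). Within p21TertCi it was not (-2.43, SE 0.86, adjusted p = 0.388), beside 0.00% of genes called. The strand setting of the counting is not given in the sources used here, so sense and antisense reads of this locus cannot be told apart.

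Foxa1, Foxa2 and Foxa3 encode paralogous forkhead factors on chromosomes 12 (57540628 to 57546916), 2 (148042877 to 148046969) and 7 (19013284 to 19023538), all on the minus strand. Foxa3 was at 65.3, 73.8, 84.2 and 45.5 CPM in p21Tert livers and 37.8 and 104.8 CPM in p21TertCi livers. Among tumors the values were 113.8 and 87.2 CPM in Ctnnb1, 122 and 138.5 CPM in Egfr/Hras and 107.8 and 86.3 CPM in driver-negative tumors. The groups overlapped through L984_CI, and Foxa3 was higher in the tumor in 4 of the 5 mice with a matching number, TCi-HCA984 being the exception. Its log2 fold change in tumors was 0.66 (SE 0.24, 95% interval 0.15 to 1.18, unadjusted p = 0.0156), and it did not pass the adjustment (0.0942), except without L984_CI (0.82, adjusted p = 0.04). The value was 0.89 (SE 0.32, adjusted p = 0.0744) in Egfr/Hras tumors, and 0.66 (SE 0.31, adjusted p = 0.236) within p21Tert.

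Foxa1 was at 33.3, 16.0, 20.3 and 27.1 CPM in p21Tert livers and 23.8 and 24.2 CPM in p21TertCi livers. The tumors stood at 23.3 and 16.8 CPM in Ctnnb1, 16.9 and 13.7 CPM in Egfr/Hras and 21.5 and 26.4 CPM in driver-negative tumors. The difference was -0.30 (SE 0.20, adjusted p = 0.392) on the log2 scale, and -0.69 (SE 0.27, adjusted p = 0.101) in Egfr/Hras tumors. Foxa2 ranged from 33.1 to 75.5 CPM in livers (median 58.7) and from 20.9 in TCi-HCC981 to 63.4 in T-HCC941 in tumors (median 43.8), with a difference of -0.34 (SE 0.26, adjusted p = 0.451).

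Per kilobase, Foxa3 made up 40.7% to 65.9% (median 50.4%) of the summed level of the 3 Foxa genes in livers and 57.7% to 84.0% (median 66.7%) in tumors. The share of Foxa2 was 25.4% to 44.5% in livers and 10.9% to 31.5% in tumors, and that of Foxa1 8.42% to 16.9% and 5.09% to 10.8%. The highest Foxa3 share and the lowest Foxa2 share were both in TCi-HCC981. The summed level was 42.4 to 86.0 CPM per kb in livers and 65.4 to 91.7 in tumors, so the 2 groups overlapped. These shares are a description without a test.

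**Figure D2:**
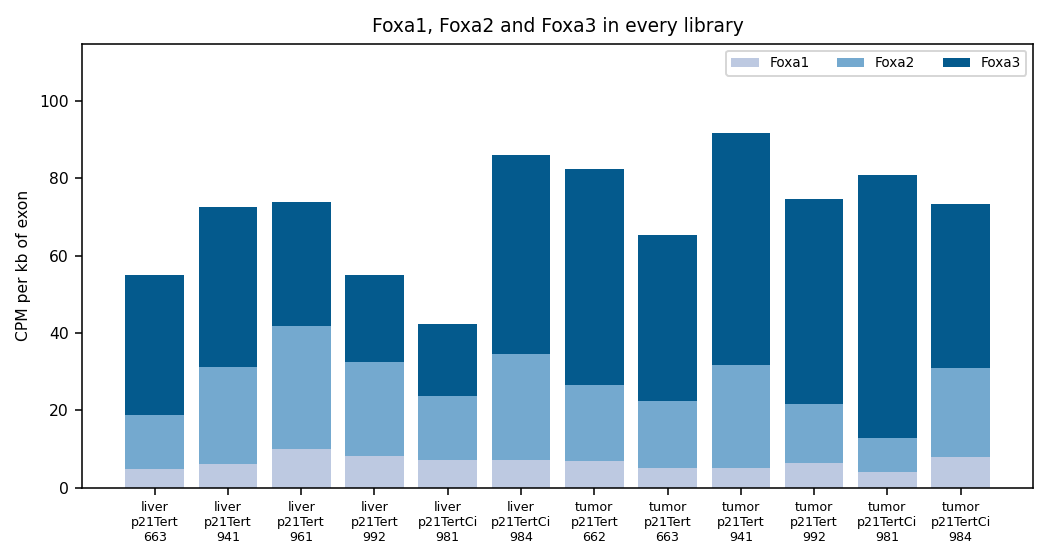
Stacked levels of Foxa1, Foxa2 and Foxa3 in CPM per kilobase of exon (vertical axis) in each of the 12 libraries, livers on the left and tumors on the right. The Foxa3 part is the largest in every tumor, and makes up 84.0% of the bar in TCi-HCC981.

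The Onecut genes encode cut-homeodomain factors. Onecut2 lies on chromosome 18 (64340020 to 64400987, plus strand). It was at 119, 84.8, 117 and 99.2 CPM in p21Tert livers and 104 and 154 CPM in p21TertCi livers. Tumors had 140.1 and 74.2 CPM in Ctnnb1, 31.6 and 51.4 CPM in Egfr/Hras and 39.0 and 87.1 CPM in driver-negative tumors. Both Egfr/Hras tumors were below all livers, which was also so, in either direction, for 33.8% of genes. T-HCC663 (74.2 CPM) and T-HCA992 (39.0 CPM) were below all livers too, and T-HCA992 lay between the 2 Egfr/Hras tumors. Onecut2 fell in Egfr/Hras tumors against livers by 1.48 on the log2 scale (SE 0.39, a level 0.36 of that in livers, 95% interval 0.20 to 0.645, adjusted p = 0.0223), the 1 of 8 members called there beside 18.2% of 15182 genes. The call rests on both tumors, since it was lost without T-HCC941 (-1.17, adjusted p = 0.172) or TCi-HCC981 (-1.88, adjusted p = 0.0604).

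In driver-negative tumors the Onecut2 difference was -0.84 (SE 0.37, adjusted p = 0.183), with no member called beside 8.10% of genes. In Ctnnb1 tumors it was -0.10 (95% interval -0.88 to 0.67), again with none of the 8 called beside 8.20% of genes. Ctnnb1 tumors were higher than the other tumors in Onecut2 by 1.06 (SE 0.36, unadjusted p = 0.0131), which did not pass the adjustment (0.0752), and no member was called in that comparison beside 12.5% of genes. Over all tumors the Onecut2 difference was -0.69 (SE 0.32, adjusted p = 0.19), but over the 5 pairs with mouse as a block it was -1.06 and was called (adjusted p = 0.0315), and over 6 pairs, with p_961 and T-HCC662 added, it was -0.85 and was not (0.0674). It was likewise called without T-HCC662 (adjusted p = 0.0277), the only tumor whose Onecut2 level was above that of the liver set beside it. Egfr/Hras against driver-negative tumors gave -0.63 (SE 0.43, adjusted p = 0.669).

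Onecut1, on chromosome 9 (74861921 to 74891781, plus strand), was the lowest of the 8 and the most variable, with 13 to 380 reads per library. Its level was 10.7, 1.42, 3.19 and 11.1 CPM in p21Tert livers and 3.65 and 18.4 CPM in p21TertCi livers. Among tumors the values were 1.35 and 1.62 CPM in Ctnnb1, 3.08 and 0.668 CPM in Egfr/Hras and 9.28 and 10.85 CPM in driver-negative tumors. TCi-HCC981, with 13 reads, has a 95% Poisson interval of 0.356 to 1.14 CPM, which covers counting error only. T-HCC663, T-HCC941 and T-HCA992 differed from their own livers by -0.26 to 0.19 on the log2 scale, TCi-HCA984 by -0.76, and T-HCC662 and TCi-HCC981 by -2.98 and -2.45 from the livers set beside them. The difference was -0.86 (SE 0.73, adjusted p = 0.501) over all tumors, -2.47 (SE 0.95, adjusted p = 0.138) in Ctnnb1 and -2.15 (SE 0.93, adjusted p = 0.128) in Egfr/Hras tumors. Both driver-negative tumors were within the liver range (0.31, SE 0.78, adjusted p = 0.844). A lincRNA on the same strand, Gm20649, shares 2171 exon bases with Onecut1 and is not among the counted symbols, so how its reads were assigned is not known.

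Prox1, on chromosome 1 (190118035 to 190170714, minus strand), was at 15.8, 23.2, 40.2 and 35.6 CPM in p21Tert livers and 40.5 and 54.3 CPM in p21TertCi livers. The tumors stood at 16.6 and 13.85 CPM in Ctnnb1, 36.7 and 36.4 CPM in Egfr/Hras and 29.4 and 45.8 CPM in driver-negative tumors. The Ctnnb1 tumors were the 2 lowest tumors, and 37.5% of genes lay apart, in either direction, between Ctnnb1 and other tumors. T-HCC662 was close to p_961 (15.8 CPM). The Prox1 difference over all tumors was -0.24 (SE 0.34, adjusted p = 0.7). Against the other tumors the Ctnnb1 tumors gave -1.29 (SE 0.42, a level 0.408 of theirs, 95% interval 0.214 to 0.775, unadjusted p = 0.0103), which did not pass the adjustment (0.0653) but did with the 6 tumors fitted alone (0.0462) and without p_961 (0.0344) or L984_CI (0.0453). The antisense gene Prox1os, also not counted, shares 133 exon bases with Prox1. Of the 6 lymphatic endothelial marker genes, 3 passed the filter on low counts in tumors against livers. All 6 summed to 11.6 and 29.3 CPM in the Ctnnb1 tumors, with Ccl21a at 0 in both. Their sum was 156.5 to 254.8 CPM in the other tumors and 19.9 to 69.8 CPM in livers. Hepatocyte, cholangiocyte, sinusoidal and stellate cell sums were also lower in the Ctnnb1 than in the other tumors. Prox1 in the other tumors (29.4 to 45.8 CPM) lay within the liver range. The part of lymphatic cells in the Prox1 values was not tested.

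**Figure D3:**
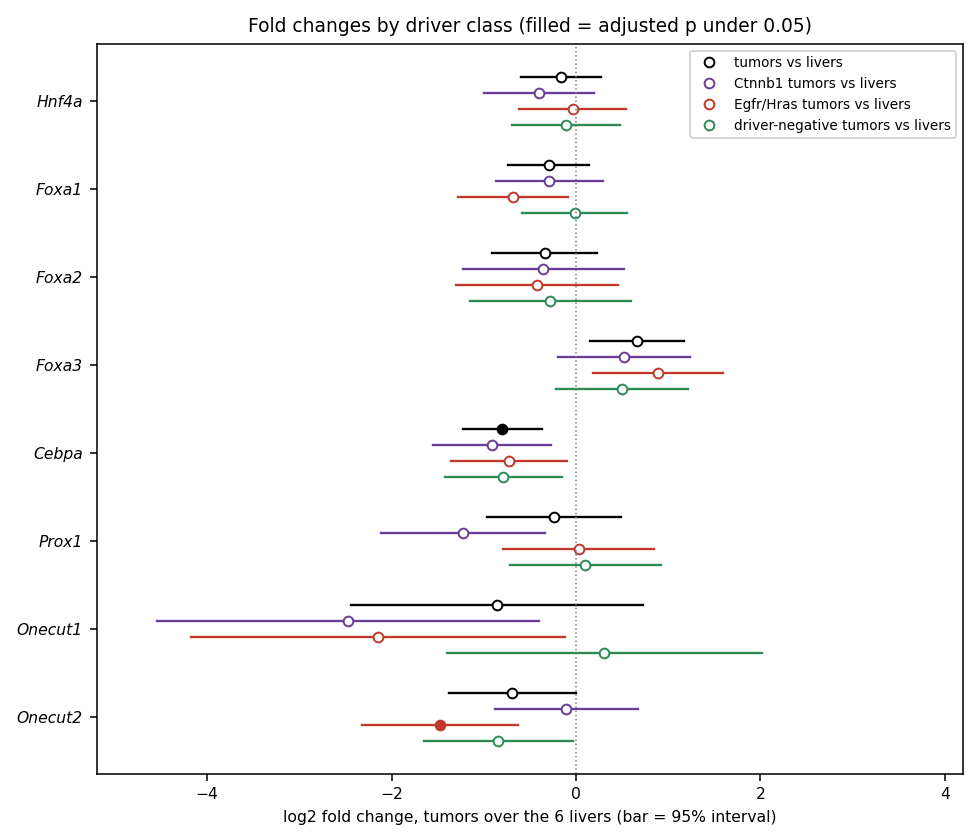
Log2 fold change against the 6 livers (horizontal axis, 0 is no change) of each factor, for all 6 tumors and for the 2 tumors of each driver class, with 95% intervals. Filled points passed an adjusted p of 0.05, namely Cebpa over all tumors (-0.80) and Onecut2 in Egfr/Hras tumors (-1.48).

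The 2 genotypes were then compared. In livers of p21TertCi against p21Tert mice none of the 8 genes was called, beside 0.00% of genes, and the largest difference was that of Onecut1 (0.76, 95% interval -1.69 to 3.22). None was called in p21TertCi tumors against their livers (0.00% of genes), for the difference of that response between genotypes (0.00%), between Egfr/Hras and driver-negative tumors (0.00%), or between p21TertCi and p21Tert tumors balanced for driver class (0.00%). At an unadjusted p under 0.05 the members numbered 0, 0, 0, 1 and 1 in these 5 comparisons, and all genes 756, 1618, 556, 1331 and 1259. DESeq2 called 42, 375, 10, 105 and 171 genes there, and 0 members. The member between Egfr/Hras and driver-negative tumors was Onecut1 (-2.46, SE 1.04, unadjusted p = 0.0368, adjusted p = 0.551) and that between the genotypes of tumors was Onecut2, higher in TCi-HCC981 and TCi-HCA984 than in T-HCC941 and T-HCA992 (0.95, SE 0.34, unadjusted p = 0.0213, adjusted p = 0.512). Its 95% interval, 0.18 to 1.72, and those of the others, such as -0.93 to 0.58 for Hnf4a, leave room for differences of over 1.5-fold.

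**Figure D4:**
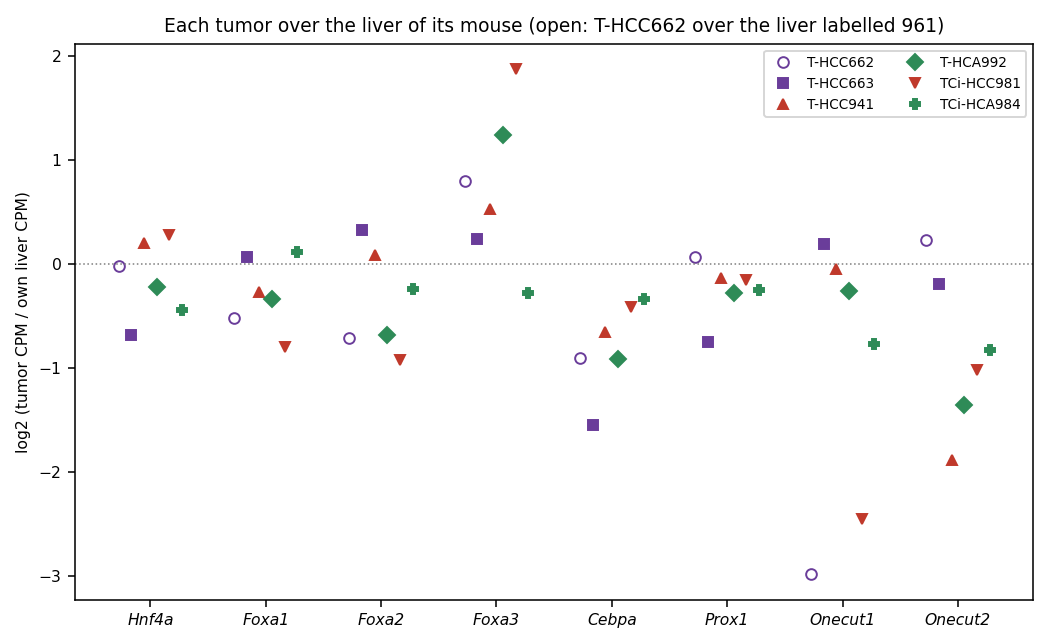
Log2 ratio of the CPM in each tumor to that in the liver of its mouse (vertical axis) for each factor, colored by driver class, with T-HCC662 set against p_961 (open circles). Cebpa is below 0 in all 6 tumors (-1.54 to -0.34), Foxa3 is above 0 in 5, and Onecut1 has the widest spread (-2.98 to 0.19).

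Among themselves the 8 genes did not move as 1 block. Across the 12 libraries the Pearson correlation of log2 CPM over the 28 pairs ran from -0.508 (Foxa1 and Foxa3) to 0.783 (Foxa1 and Onecut1), with a median of 0.24. Foxa1 and Foxa2 were at 0.704 and Onecut1 and Onecut2 at 0.243. Each pair shares libraries, depth and the contrast of tissue, so these are descriptions. The 3 genes most like each member over the same 12 libraries were Il1rap (0.956), Marc1 (0.944) and C8g (0.938) for Cebpa, where Il1rap is a co-receptor for interleukin-1 and C8g a complement component made by hepatocytes. They were Atg13 (0.914), Mir7019 (0.911) and Aff4 (0.883) for Hnf4a, Fkbp11 (0.917), Lars (0.886) and Derl1 (0.881) for Foxa3, and Nos1ap (0.962), Fancm (0.906) and Mir6978 (0.901) for Prox1. They were Scaf4 (0.857), Gm15800 (0.846) and Tfpi2 (0.844) for Foxa1, Ephb4 (0.838), Rexo1 (0.831) and Abcb9 (0.817) for Foxa2, Mapkapk5 (0.914), Wnt9b (0.911) and Nol6 (0.896) for Onecut1, and Cog4 (0.952), Tcta (0.948) and Slc25a42 (0.946) for Onecut2. They are the highest of 13822 genes, and high values are found at 12 points for many genes.

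Other genes of the network were read from 4 lists. Of 22 partner transcription factors and cofactors, 21 passed the filter, and in tumors 0 rose and 3 fell, a share near the 10.7% of all genes called, with a median log2 fold change of -0.36 against 0.01 over all genes. Nr2f2 (COUP-TFII, which competes with HNF4A for its sites) fell by 0.76 (SE 0.15, adjusted p = 0.00635), from 48.7 ± 6.49 CPM in livers to 28.9 ± 5.03 in tumors (SD, n = 6 each). Nr1h4, the bile acid receptor FXR, fell by 1.10 (SE 0.30, adjusted p = 0.0328), and Klf15, a regulator of gluconeogenesis and amino acid breakdown, fell by 1.11 (SE 0.30, adjusted p = 0.0332). All 3 kept their call with mouse as a block, where 6 (5 pairs) or 9 (6 pairs) of the list were called. Nr1h4 and Klf15 were each called in 11 of 18 settings, the main one included, and each lost the call in 7 of the 12 fits without 1 library, with adjusted p-values up to 0.0751 and 0.074. In Ctnnb1 against other tumors 1 was higher and 2 were lower, near the 12.5% of all genes called. Tbx3, a β-catenin target in liver, was higher (4.28, SE 0.37, adjusted p = 8.43e-05), at 137 and 141 CPM against 2.72 to 24.1, while Xbp1, a secretory pathway factor, and Nr5a2, which acts on bile acid genes, were lower (-1.26, SE 0.34, adjusted p = 0.0351, and -1.11, SE 0.29, adjusted p = 0.0308).

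Of 24 genes taken as Hnf4a targets, 23 were measured and tested, 5 fell, 1 rose and 17 did not pass in tumors, beside 10.7% of all genes called, with a median of -0.56 against 0.01 over all genes, while Hnf4a itself was at -0.16. Those that fell were Otc of the urea cycle (-1.96, SE 0.29, adjusted p = 0.00192), the bile acid transporter Slc10a1 (-2.13, SE 0.45, adjusted p = 0.01), Tat of tyrosine breakdown (-1.75, SE 0.41, adjusted p = 0.0164), Cyp8b1 of bile acid synthesis (-3.09, SE 0.75, adjusted p = 0.0211) and Pck1 of gluconeogenesis (-2.08, SE 0.61, adjusted p = 0.0463). Pck1 lost the call in 10 of the 12 fits without 1 library, with an adjusted p of up to 0.1. Apoc2, an apolipoprotein, rose by 1.82 (SE 0.44, adjusted p = 0.0206), but was not called with mouse as a block (adjusted p = 0.0913 over 5 pairs). In Ctnnb1 against other tumors Cyp27a1, of bile acid synthesis, was higher (1.99, SE 0.37, adjusted p = 0.008), and Slc10a1 (-1.60), Apoc2 (-1.83) and Cyp8b1 (-3.14) were lower, with adjusted p-values of 0.0219, 0.037 and 0.0394 and 19 genes not called.

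The 7 genes taken as Cebpa targets share 3 genes with the Hnf4a list, and 3 of the 7 fell in tumors, beside the same 10.7% and all-gene median of 0.01, with a list median of -1.44. They were Hamp, the iron hormone hepcidin (-3.67, SE 0.86, adjusted p = 0.0167), which went from 953 to 2439 CPM in livers to 10.0 to 562 in tumors, and Tat and Pck1. Of 7 Foxa targets, 4 of which are on the Hnf4a list and 4 on the Cebpa list, Tat and Pck1 fell and Afp, the fetal α-fetoprotein, rose (4.06, SE 0.74, adjusted p = 0.00472), from 2.43 to 6.92 CPM in livers to 11.9 to 235 in tumors, with a median of -0.64 for the list. Alb (-2.47, SE 0.69, adjusted p = 0.0394) was lower in Ctnnb1 than in other tumors, as were Cps1 of the Cebpa list (-3.13, SE 0.54, adjusted p = 0.00562) and Afp of the Foxa list (-3.09, SE 0.72, adjusted p = 0.021). Over the 5 pairs with mouse as a block, the Ctnnb1 class rests on T-HCC663 and its liver, since T-HCC662 has no pair. In that fit the log2 difference of Tbx3 between Ctnnb1 and other tumors was 5.2. Without T-HCC662, Tbx3 and Apoc2 kept their call and the other 8 genes lost it. Of 19 settings, the main one included, Alb was called in 6 (adjusted p up to 0.245), Xbp1, Apoc2 and Cyp8b1 in 11, Nr5a2 in 12, Afp in 14, Slc10a1 in 15, Cyp27a1 in 16 and Cps1 in 17. Cebpa itself was not called there (-0.16, adjusted p = 0.763), and neither was Foxa1 (0.06, 95% interval -0.54 to 0.66, adjusted p = 0.912).

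**Figure D5:**
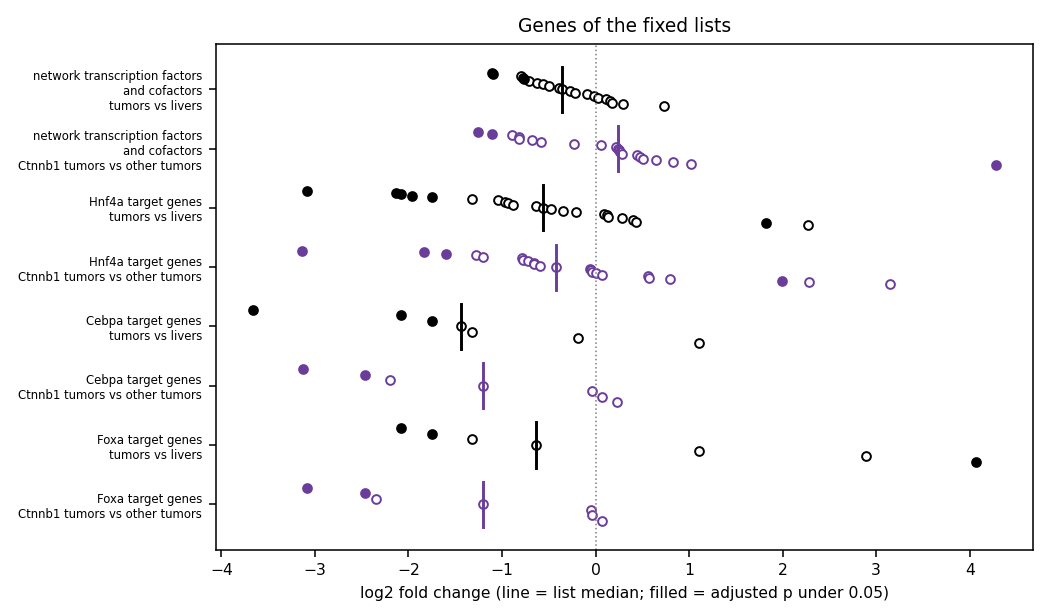
Log2 fold change (horizontal axis) of every tested gene of the 4 lists, in tumors against livers (black) and in Ctnnb1 against other tumors (purple), with a line at the list median and filled points for an adjusted p under 0.05. The medians for tumors against livers are -0.36, -0.56, -1.44 and -0.64.

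Markers of cell types were summed as CPM. The 7 hepatocyte markers found of 8 were at 38304 to 57613 in livers and 18392 to 102473 in tumors, where the Ctnnb1 tumors were the 2 lowest (18392 and 35238). Alb, Cps1 and other genes of this list are also on the target lists above, so the sum is not a separate reading of hepatocyte content. Cholangiocyte markers, of a cell type that shares Onecut1 and Foxa genes, were at 71.6 to 168 in livers, 31.2 and 59.7 in Ctnnb1 tumors and 91.4 to 1110 in the other tumors. Sums in livers and tumors were 55.0 to 181 and 51.5 to 254 for sinusoidal endothelium, 140 to 1594 and 134 to 1145 for macrophages, 6.08 to 29.7 and 4.46 to 25.2 for neutrophils, 43.6 to 196 and 15.7 to 190 for stellate cells and fibroblasts, 0.679 to 7.84 and 1.76 to 23.0 for T cells, and 0.485 to 32.3 and 0.511 to 12.4 for B cells. Sinusoidal sums were 51.5 and 92.6 in Ctnnb1 tumors and 134 to 254 in the other tumors. Stellate cell and fibroblast sums were 15.7 and 43.25 against 93.5 to 190. The macrophage, neutrophil, T cell and B cell sums overlapped between Ctnnb1 and other tumors. Of all these lists, 1 lymphatic (Flt4) and 1 sinusoidal gene (Pecam1) were called in tumors against livers, both higher. The part of other cell types in the members' values was not tested.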

How the data were processed

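Poly(A) RNA of 6 liver tumors and 6 non-tumoral livers was sequenced, and the authors aligned reads to mm10 with an added mCherry sequence using Subread and counted them per gene with featureCounts 1.6.4. The deposited values are raw read counts without normalization. The annotation release, strandedness and treatment of multiple alignments are not given in the sources used here. The authors corrected for the sequencing run, which the labels do not give, so no run term was fitted.

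Groups came from the labels and driver classes from the study's exome data. Counts were scaled (TMM), filtered with filterByExpr and tested with the quasi-likelihood F test of edgeR 4.0.16 in R 4.3.3, with Benjamini-Hochberg adjustment over all genes tested and a threshold of 0.05. The SE is the log2 fold change over the square root of F. These fits held all 12 libraries, and comparisons within a genotype or class share 1 spread and, where tested against all livers, the same livers. Log2 CPM used a prior count of 2. Alternatives were DESeq2 1.42.0, RLE size factors, every gene with a count, only the groups compared, mouse as a block, and each library left out. The fit was tested on simulated data.

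The p21Tert liver p_961 bears the number of T-HCC662 in the name of its deposited file and in the study's list of mice, so it was paired with T-HCC662 in a fit only in 1 alternative, and set beside it in the ratios of tumor to liver, where this is said. Same-numbered samples come from 1 mouse. In p21Tert their deviations from group means correlated at 0.0398 (663), 0.00583 (941) and 0.427 (992). Other pairs ran from -0.542 to 0.218 (median -0.0652), a range that holds the values of 663 and 941. In p21TertCi, with 2 samples a group, both values are 0.542. They are equal by construction, and their mirror values of -0.542 are among the other pairs.

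The members and lists were chosen with earlier results of these data known. Genes named are the 8 members, genes that overlap them, list genes that passed in tumors against livers or Ctnnb1 against other tumors (at most 6 per list and comparison by p), the 3 genes most correlated with each member, and Tert, Cdkn1a, Glul, Axin2, Xist and Ddx3y. Flt4, Pecam1 and Ccl21a were named after their values were seen.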

Additional observations from a re-analysis of the deposited data

How the results depend on the processing

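No member changed sign with a call. Of 488 values of a member in a comparison under the other settings, 475 kept their side of the threshold, 2 lost a call and 11 gained one. Of 1056 values with 1 library left out, 1038 kept it, 11 lost and 7 gained a call. The number of members called in tumors against livers was 1, with 0 to 2 when 1 library was left out (2 without T-HCC662, with Onecut2, or L984_CI, with Foxa3), and with the replicate block over 5 pairs the 1 gene called was Onecut2 in place of Cebpa. It was 1 within p21Tert, with 0 over the 5 pairs and 0 to 1 without 1 library. Under DESeq2 it rose to 3 for Ctnnb1 tumors against livers (Cebpa, Prox1 and Onecut1, from 0), 4 for Egfr/Hras tumors (Onecut2, Cebpa, Foxa3 and Onecut1, from 1), 1 for driver-negative tumors (Cebpa, from 0) and 2 for Ctnnb1 against other tumors (Prox1 and Onecut2, from 0), where it was 1 (Prox1) with only the tumors fitted. Of 15182 genes tested, DESeq2 called 2126, 3701, 2248 and 3111 in these 4 comparisons. Leaving out 1 library gave 0 to 1 (Prox1 without p_961), 0 to 2 (Foxa3 added without L984_CI), 0 to 0 and 0 to 1 (Prox1 without p_961 or L984_CI, Onecut2 without TCi-HCA984) in these 4. The replicate block changed no other call of a member. It was not run between livers, where each mouse has 1.

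Counts over all genes also moved. DESeq2 called 2407 genes for tumors against livers (1477 with edgeR) and 2109 within p21Tert (986). Against livers it called 2126 for Ctnnb1 (1245), 3701 for Egfr/Hras (2764) and 2248 for driver-negative tumors (1230). For Ctnnb1 against other tumors it called 3111 (1896 with edgeR, or 839 with the tumors alone). With the replicate block over 5 and 6 pairs Egfr/Hras tumors gave 1597 and 1801 (2764), and driver-negative tumors 203 and 237. Over 6 pairs Ctnnb1 against other tumors gave 441 and Ctnnb1 tumors against livers 851. Over 5 pairs the Ctnnb1 class rests on T-HCC663 and its liver alone, so no count is given for it. p21TertCi tumors against livers gave 0, and 1 with RLE factors and 2 with every gene. Without 1 library the counts ran from 863 (p_961) to 1988 for tumors against livers, 240 (p_961) to 1192 within p21Tert, 410 (T-HCC662) to 1329 for Ctnnb1, 1079 (TCi-HCC981) to 3270 for Egfr/Hras and 196 (T-HCA992) to 1460 for driver-negative tumors against livers, and 437 (T-HCC662) to 2121 for Ctnnb1 against other tumors. Of the 3 genes most like a member, Spearman's measure shared 2 for Onecut1, 0 for Foxa2 and Onecut2 and 1 for each of the others. Levels per kb moved by less than 1 SD with the longest transcript as length. Classes of 2 tumors limit what these fits can call.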
